A study of Mus musculus with 3 samples.

Results

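The 86 regions described here are blocks of closely spaced peaks of the histone mark H3K27me3 in the mouse genome. Each block is overlapped by 5 or more peaks of Suz12. Peaks of H3K27me3 on chromosomes 1 to 19 were joined into domains wherever the gap between them was at most 5000 bp. Domains overlapped by at least 5 Suz12 peaks, each by 1 bp or more, were kept, and those touching 1 of the 4 Hox clusters were left out. Of 7624 autosomal domains, 91 (1.19%) had 5 or more Suz12 peaks and 86 remained without the Hox clusters. These 86 Suz12-rich domains covered 2.62 Mb. They held 644 of the 1464 autosomal Suz12 peaks, which is 44.0% (95% exact binomial interval 41.4 to 46.6). They held 1869 of 25897 autosomal H3K27me3 peaks, which is 7.22% (6.90 to 7.54).

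Chromatin immunoprecipitation followed by sequencing pulls down a protein or a modified histone together with its DNA, and the sequenced DNA shows where in the genome it sat. Small intestinal crypts came from C57BL/6 mice with the genotype Lgr5Gfp-CreERT2, a knock-in that places a green fluorescent protein and a tamoxifen-inducible Cre under the promoter of the stem cell gene Lgr5, and all libraries shared this background. The 3 libraries were 1 precipitated with an antibody against Suz12, 1 with an antibody against H3K27me3 and 1 input without antibody. The labels name no treatment, sex, age or number of animals, and the input library was not analysed here. Crypts hold stem cells, progenitors and differentiated cells, so fewer cells carrying the mark and less of the mark per cell cannot be told apart. Peak lists hold no expression, so the labelled tissue could not be checked against marker genes.

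Polycomb repressive complex 2 (PRC2) places methyl groups on lysine 27 of histone H3. Its core subunit Suz12 is required for that activity. The trimethylated form, H3K27me3, marks the chromatin of silenced genes. PRC2 can bind the mark it has made, and from its landing sites the mark can spread along neighbouring nucleosomes into broad domains. In mammalian cells such domains are known for covering developmental regulators that a tissue does not use. No annotation of the genome build of these lists (mm9) was used here, so domains are named by mm9 coordinates counted from 1, without genes, and no DNA sequence is shown.

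These domains were chosen by the number of Suz12 peaks and the spacing of H3K27me3 peaks, and every other value below comes from the same 2 peak lists. With 1 library per antibody no value has a replicate error. The comparisons are therefore descriptions without tests. Each deposited peak has a score, called its value below, whose scale no label or header states. Values begin at 8 in both lists and were compared within a list only. The lists give no read counts, so the depth is unknown. Binomial intervals cover counting error alone, and neighbouring peaks are not independent.

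Most Suz12-rich domains sat close to the minimum number. There were 25 domains with 5 Suz12 peaks, 16 with 6, 9 with 7, 12 with 8 and 8 with 9. The other 16 had 10 or more and held 192 Suz12 peaks. Just under the minimum, 24 domains had 4 Suz12 peaks, and their median length was 18.3 kb, against 20.2 kb for those with 5. The 3 longest with 5 peaks lay on chromosome 4 at 115588637-115655000 (66.4 kb, highest Suz12 value 35.1), chromosome 13 at 40795155-40843766 (48.6 kb, 35.2) and chromosome 1 at 157557368-157605109 (47.7 kb, 19.5). The 3 longest with 4 lay on chromosome 4 at 134680652-134736553 (55.9 kb, 35.7) and chromosome 19 at 44791269-44841799 (50.5 kb, 22.5) and 45283303-45327451 (44.1 kb, 23.5). These domains on either side of the minimum overlapped in length and in highest Suz12 value.

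The median length of Suz12-rich domains was 27759 bp, with quartiles of 18978 and 38049 bp. The median was 14454 bp for the 189 domains with 2 to 4 Suz12 peaks and 9577 bp for the 180 with 1. The minimum number of peaks ties length to membership, so nothing is read from this order. Among the 86 domains, length and Suz12 number had a Spearman's rho of 0.35 and a Pearson's r of 0.35 (86 domains of the same 2 libraries). The minimum number of Suz12 peaks narrows the range of that number, so nothing is read from the strength of this relation. Length and the number of H3K27me3 peaks had a rho of 0.93 and an r of 0.95. Domains were built by joining H3K27me3 peaks, so length grows with their number by construction. Suz12 peaks were as sparse as 0.753 per 10 kb of domain and as dense as 12.2 per 10 kb, with a median of 2.57.

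**Figure D1:**
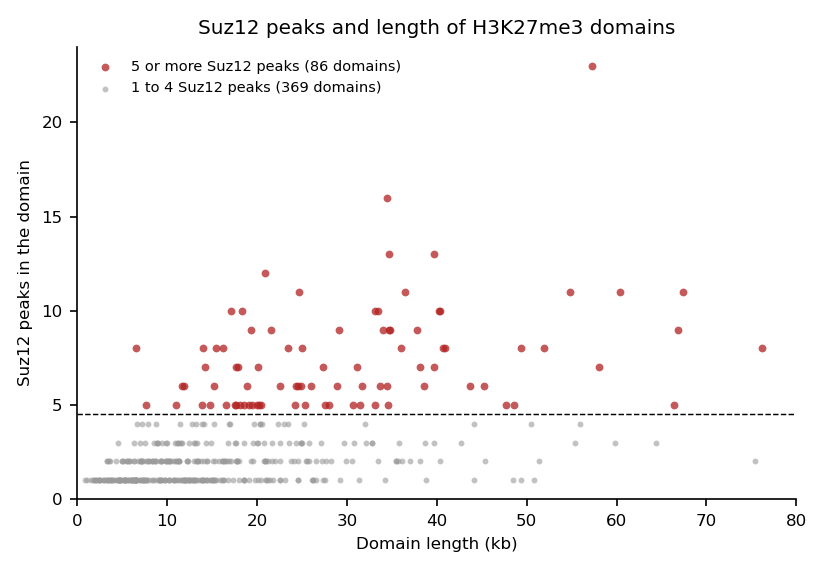
Number of Suz12 peaks (vertical axis) against domain length in kb (horizontal axis) for the 86 Suz12-rich domains (red) and the 369 domains with 1 to 4 Suz12 peaks (grey), each point 1 domain, Hox clusters left out; the dashed line marks the minimum of 5. Suz12-rich domains spread from 6.56 to 76.2 kb, and the domain with 23 Suz12 peaks stands above the others at 57.2 kb.

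The domain with the most Suz12 peaks lay on chromosome 14 at 122836734-122893973 (mm9). It spanned 57.2 kb and held 23 Suz12 and 38 H3K27me3 peaks. Its Suz12 values ran from 8.05 to 35.3 with a median of 11.5. The highest belonged to a peak of 3602 bp at 122874657-122878258, 97.2% of which lay under H3K27me3. That peak overlapped the strongest H3K27me3 peak of the domain, with a value of 35.5. The next Suz12 values were 23.9 and 21.7, in the narrow peaks on either side of it, at 122873944-122874419 and 122878441-122879101. The second of these had no H3K27me3 peak over it. Further peaks with values of 16.01 and 21.7 lay at 122862297-122862910 and 122863671-122865042. Suz12 was thus highest at 1 wide peak and its neighbours, and most of the other peaks were narrow and weak. No Suz12 peak was found in the first 24711 bp of this domain, where H3K27me3 peaks continued.

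The 34.5 kb domain on chromosome 5 at 106872176-106906663 had 16 Suz12 peaks and a flatter set of values. They ran from 8.05 to 29.9 with a median of 14.1, and the next after the highest was 19.5. Of the 13 Suz12 peaks in the 39.7 kb domain on chromosome 6 at 51111128-51150825, the highest had a value of 23.8. All 13 lay within 13310 bp, and 19487 bp at the high-coordinate end held none. The strongest H3K27me3 peak of this domain (30.1, at 51133731-51134833) overlapped no Suz12 peak and lay 10991 bp from the highest one.

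A second domain with 13 Suz12 peaks, on chromosome 2 at 71361159-71395828, was dominated by wide peaks. Suz12 peaks covered 48.9% of its 34.7 kb. They included peaks of 5071 bp (value 22.9), 2991 bp (24.9) and 4176 bp, the last with a value of 54.0 and 5 H3K27me3 peaks beneath it. The strongest H3K27me3 peak (28.5) lay 11522 bp from that highest Suz12 peak, under the one of 5071 bp. On the same chromosome, the 20.9 kb domain at 115882389-115903323 had 12 Suz12 peaks with values of 8.90 to 16.98, none wider than 1153 bp. The 2 chromosome 2 domains thus had nearly equal numbers of Suz12 peaks and very different highest Suz12 values, 54.0 and 16.98.

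Of the domains with 10 or 11 Suz12 peaks, the 67.4 kb domain on chromosome 5 at 139981574-140048932 had the highest median Suz12 value among the 12 domains richest in Suz12, at 19.5. Its 11 Suz12 peaks lay within 22826 bp, and H3K27me3 peaks ran on for 29737 bp below and 14796 bp above them. The others with 11 were on chromosome 2 at 38176967-38237368 and 105497016-105533441, chromosome 1 at 78161096-78215924 and chromosome 4 at 109644079-109668734. Their highest Suz12 values were 21.1, 30.6, 22.0 and 25.5. The pair with 10 that completes the 12 lay on chromosome 8 at 12378551-12418899 and chromosome 2 at 9788109-9828347, with highest values of 19.1 and 24.99.

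**Figure D2:**
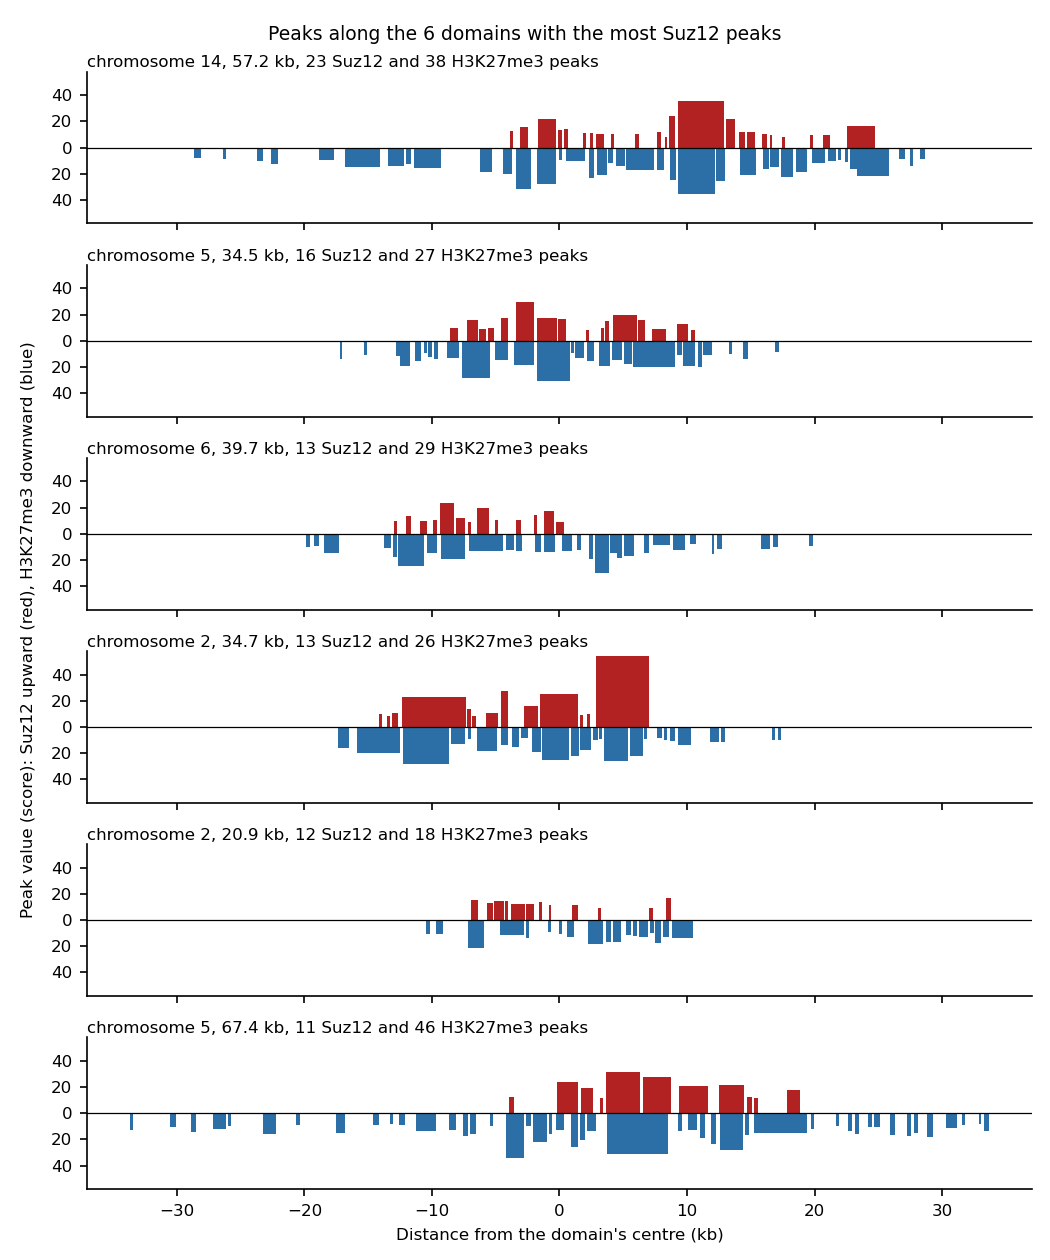
Suz12 peaks (red, upward) and H3K27me3 peaks (blue, downward) along the 6 domains with the most Suz12 peaks, drawn to scale in kb from the centre of each domain, with bar width showing peak width and bar height showing peak value on each list's own score scale. Suz12 peaks crowd into part of each domain, and H3K27me3 peaks run on beyond them, farthest on the low-coordinate side of the 67.4 kb domain on chromosome 5.

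Suz12 peaks of the 86 domains were close neighbours, which the choice of domains by Suz12 number favours. Gaps in other domains are not given here, so no trait of the group is read from them. Of the 558 gaps between successive Suz12 peaks, 426 (76.3%) were at most 1000 bp and 175 (31.4%) at most 200 bp, and the median was 372 bp. When peaks at most 1000 bp apart were taken as 1 group, 21 domains had a single group, 27 had 2, 18 had 3, 13 had 4 and 7 had 5 or 6. Only 7 domains on the autosomes outside the Hox clusters had 5 or more such groups. The number of Suz12 peaks in a domain therefore counts closely spaced peaks of the list, and whether the peak caller split single sites was not tested. When Suz12 peaks in the lower 50% by value were left out, 32 domains had 5 or more.

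The 644 Suz12 peaks covered a wide range of strength. Their median value was 12.5 (quartiles 9.99 and 16.1), against 11.6 in domains with 2 to 4 Suz12 peaks, 10.7 in domains with 1 and 11.7 over all autosomal Suz12 peaks. Median widths were 471 bp in Suz12-rich domains, 392 bp with 2 to 4 peaks and 336 bp with 1. Peaks of at least 1000 bp made up 22.2% (143 of 644) in Suz12-rich domains, against 19% of all autosomal Suz12 peaks. They were 18.8% in domains with 2 to 4 Suz12 peaks and 7.22% in domains with 1. The 151 Suz12 peaks at Hox clusters had a median value of 12.5 and a median width of 486 bp. Value and width went together among the 644 peaks (rho 0.69, r 0.76, peaks of 1 library).

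A single strong Suz12 peak stood out in some domains and not in others. The highest value of a domain ranged from 11.7 to 60.9 with a median of 21.0, and 38 of the 86 domains had no Suz12 peak that reached 20. Such low maxima were more common in the other classes. The upper quartile of the highest value was 18.5 in domains with 2 to 4 Suz12 peaks and 12.8 with 1. A domain with more peaks has more chances of a high one, so nothing is read from this order. The highest value exceeded the next by 3.27 in the median domain and by over 10 in 19 domains. The largest such step was 40.2, in the 66.8 kb domain on chromosome 19 at 43636648-43703454, where a Suz12 peak of 6866 bp reached 60.9 and the next of the 9 had 20.6. In the 22.5 kb domain on chromosome 7 at 138680744-138703266 the 2 highest of 6 peaks reached 54.3 and 36.2. On chromosome 4 at 99314411-99332710, a domain of 18.3 kb with 10 Suz12 peaks, the 2 highest were 48.6 and 44.6, with widths of 1507 and 701 bp. The domain on chromosome 9 at 98843123-98877653 had a peak of 42.7 and 4 others of at most 20.1. These 4 domains and the chromosome 2 domain at 71361159 were the 5 of the 86 with a Suz12 value above 40. Higher values than any of theirs lay outside the group. The highest was 72.5 in domains with 2 to 4 Suz12 peaks and 65.1 in domains with 1.

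**Figure D3:**
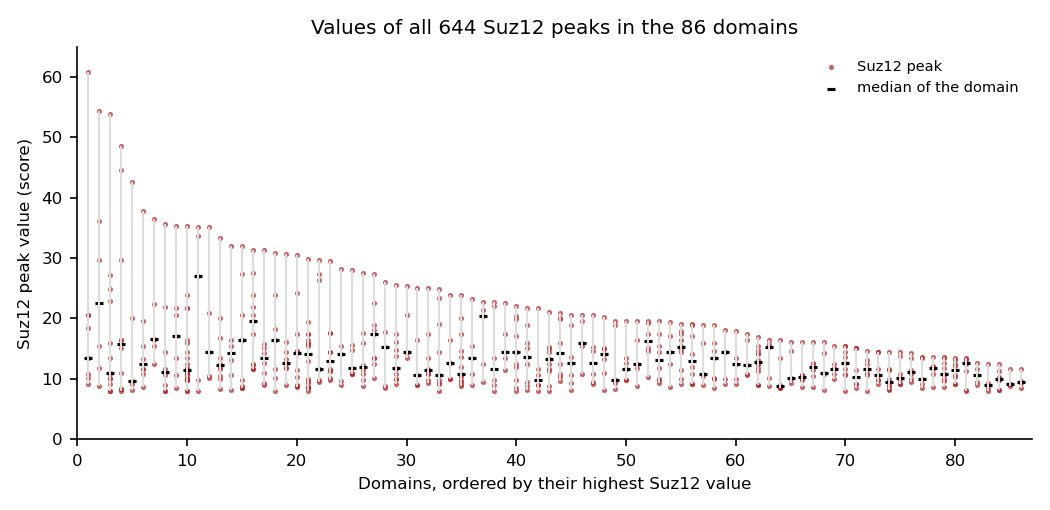
Values (score) of all 644 Suz12 peaks, each a red point, in the 86 Suz12-rich domains ordered from the highest to the lowest maximum; grey lines run from the lowest to the highest value of a domain and black dashes mark its median. Maxima span 60.9 to 11.7 along the order, and the domain medians have quartiles of 10.9 and 14.3.

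Nearly all Suz12 peaks of these domains lay on H3K27me3 peaks. Overlap was found for 626 of 644 (97.2%), against 97.1% of all autosomal Suz12 peaks. Peaks in a domain could also lie in its gaps, and 18 (2.80%) did. H3K27me3 covered 89.9% of the sequence in these Suz12 peaks. Only 57.5% (95% interval 53.5 to 61.3) of them lay wholly under H3K27me3, against 66.5% (62.1 to 70.7) in domains with 2 to 4 Suz12 peaks and 85.0% (78.9 to 89.9) in domains with 1, where Suz12 peaks were narrower. A Suz12 peak spanned 2 or more H3K27me3 peaks in 94 cases, and 169 H3K27me3 peaks carried 2 or more Suz12 peaks.

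Most of the mark in Suz12-rich domains had no Suz12 peak on it. Of their 1869 H3K27me3 peaks, 510 (27.3%) overlapped Suz12, against 4.71% of all autosomal H3K27me3 peaks. The share was 15.9% in domains with 2 to 4 Suz12 peaks and 12.2% in domains with 1. The choice of domains by Suz12 number fixes this order, so nothing is read from it. By sequence, Suz12 peaks lay on 28.1% of the H3K27me3 peaks of the 86 domains.

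H3K27me3 peaks were strongest where they met Suz12. In the 86 domains the 510 H3K27me3 peaks with Suz12 had a median value of 19.3 and a median width of 1179 bp, against 12.1 and 460 bp for the 1359 without. The median with Suz12 was the higher in each of the 86 domains, by a median of 6.96. Wider peaks are more likely to overlap and have higher values. Among H3K27me3 peaks of 400 to 800 bp the medians were 15.6 with Suz12 (123 peaks) and 13.5 for peaks without it that lay up to 1 kb from a Suz12 peak (90 peaks). Over all widths, the same 2 groups had medians of 19.3 and 13.8.

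H3K27me3 peaks farther from Suz12 had lower values within the domains. Median H3K27me3 values were 13.8 up to 1 kb from the nearest Suz12 peak (250 peaks), 12.2 from 1 to 5 kb (532 peaks), 11.3 from 5 to 10 kb (308 peaks) and 11.0 beyond 10 kb (269 peaks, from 45 domains). Widths were also lower farther away, with medians of 521, 515, 391 and 383 bp. Among peaks of 400 to 800 bp, the medians were 13.5, 12.9, 12.9 and 11.3, against 12.1 over the 759 H3K27me3 peaks of that width in the 117 domains of at least 20 kb without Suz12 and 12.1 over all autosomal ones. Over all widths, the median beyond 10 kb was 11.0, against 11.4 in the 117 domains without Suz12. The upper 10% of the autosomal list begins at 18.5 and, with ties, holds 10.4% of peaks. It held 55.1% of H3K27me3 peaks that overlapped Suz12, 21.6% of those up to 1 kb away and 4.09% of those beyond 10 kb.

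**Figure D4:**
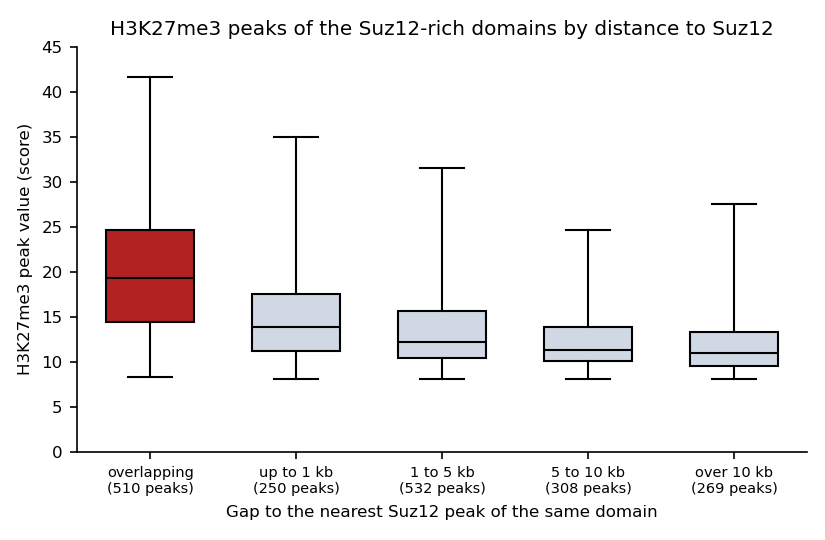
H3K27me3 peak values (score, vertical axis) in the 86 Suz12-rich domains by the gap to the nearest Suz12 peak of the same domain (horizontal axis); boxes show quartiles, lines inside them medians and whiskers the lowest and highest value, with peaks that overlap Suz12 in red. Medians are 19.3, 13.8, 12.2, 11.3 and 11.0 from left to right, and the boxes overlap between neighbouring distances.

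Suz12 peaks gathered toward the middle of the domains, and in most domains the mark ran beyond them on both sides. A domain begins and ends with an H3K27me3 peak by construction. The mark beyond the outermost Suz12 peaks therefore follows in part from how domains were drawn, and nothing is read from it. On a scale from 0 at the centre of a domain to 1 at either end, where an even spread gives 0.5, the 644 Suz12 peaks had a median distance of 0.302 (95% binomial interval of the median 0.276 to 0.325). The median was 0.348 for Suz12 peaks in domains with 2 to 4, 0.373 in domains with 1 and 0.302 in domains touching a Hox cluster. From the first to the last Suz12 peak, the span was 11030 bp in the median domain, or 41.7% of its length. In 56 of 86 domains it took up less than 50%. The longer of the 2 stretches beyond the outermost Suz12 peaks had a median of 10527 bp and reached 36502 bp in the chromosome 19 domain at 43636648. The smallest share, 14.4%, was in the 47.7 kb domain on chromosome 1 at 157557368. The largest, 99.8%, was in a 14.2 kb domain on chromosome 11 at 118895739-118909904.

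H3K27me3 was denser inside the Suz12 span. Peaks of the mark covered 77.1% of the 1098 kb between the outermost Suz12 peaks and 47.5% of the 1522 kb outside them. The share was higher inside in each of the 79 domains with at least 5 kb outside. The span begins and ends at Suz12 peaks, and 97.2% of the 644 overlapped H3K27me3. A higher share inside therefore follows in part from how the span was drawn, and nothing is read from it. In 10 steps from the centre to the ends, mean coverage by H3K27me3 was 75.6% in the first, 44.1% in the ninth and 49.6% in the last, where a domain begins and ends with a peak by construction. In the 117 long domains without Suz12 the same steps gave 39.6%, 29.0% and 44.5%. Coverage by Suz12 peaks in the 86 domains was 38.0% in the central step and 2.53% in the last. Median H3K27me3 values were 14.1 in the central step, 15.6 in the third and 10.4 in the last, against 12.1, 12.01 and 10.7 in long domains without Suz12.

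**Figure D5:**
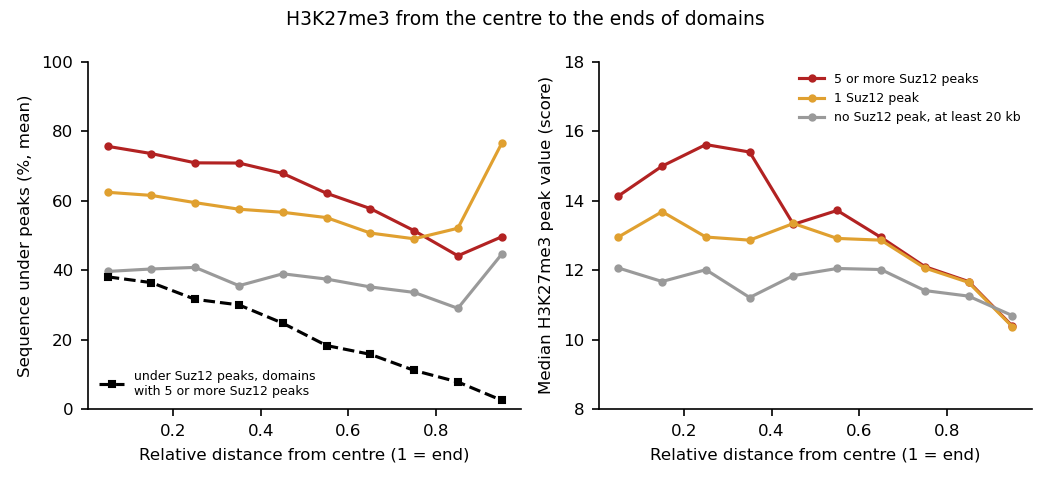
Left, mean share of sequence under H3K27me3 peaks, and under Suz12 peaks (black dashes), in 10 steps of relative distance from the centre (0) to the end (1) of a domain; right, median H3K27me3 peak value (score, axis from 8 to 18) in the same steps, for the 86 Suz12-rich domains (red), the 180 with 1 Suz12 peak (orange) and the 117 of at least 20 kb without Suz12 (grey). Suz12-rich domains start at 75.6% coverage in the centre, against 62.4% with 1 Suz12 peak and 39.6% without, and their median values meet those of the other classes toward the ends.

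Within bins of length, the Suz12-rich domains had the largest median share of sequence under H3K27me3 peaks. Nearly all Suz12 peaks lay on H3K27me3 peaks, so the choice by Suz12 number can favour domains with a larger share. The 2 were not separated. From 10 to 20 kb, the median share of a domain under H3K27me3 peaks was 67.0% in 24 Suz12-rich domains, 54.6% in 69 domains with 2 to 4 Suz12 peaks and 47.4% in 61 with 1. Lengths still differed in this bin, with medians of 17.3, 13.8 and 13.2 kb in the same order. From 20 to 30 kb it was 60.6%, 51.4%, 50.4% and, without Suz12, 37.7% (20, 39, 19 and 78 domains). From 30 to 40 kb it was 57.7%, 44.5%, 38.6% and 33.7% (22, 16, 3 and 27 domains). Without regard to length the medians were 60.5% in Suz12-rich domains and 56.8% in domains with 1 Suz12 peak, many of which were short and consisted of few peaks. That smaller difference was -0.366 percentage points when only the upper 50% of H3K27me3 peaks by value were used. The share ranged among the 86 from 40.1% on chromosome 5 at 108138979-108163861 to 92.6% on chromosome 7 at 5002472-5010101, and was lower in longer domains (rho -0.49, r -0.50).

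Across whole domains, median H3K27me3 values were 13.3 in Suz12-rich domains, 12.6 with 2 to 4 Suz12 peaks, 12.1 with 1, 11.4 in long domains without Suz12 and 11.2 over the autosomal list. H3K27me3 peaks without Suz12 had medians of 12.1, 12.1, 11.4 and 11.4 in these 4 classes. Those that overlapped Suz12 had the opposite order, with a median value of 19.3 in Suz12-rich domains (510 peaks), 21.1 with 2 to 4 Suz12 peaks (397 peaks) and 22.6 with 1 (188 peaks). Their median widths were 1179, 1377 and 1561 bp in the same order. The upper 10% by value held 23.4% of all H3K27me3 peaks of Suz12-rich domains, and 11.6% of the 1359 that overlapped no Suz12 peak, against 10.4% of the autosomal list. The 458 H3K27me3 peaks of the Hox clusters had a median value of 13.8, with 23.6% in the upper 10%.

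The strongest H3K27me3 peak of a Suz12-rich domain usually overlapped a Suz12 peak, and in under 50% of the domains it overlapped the strongest one. It overlapped Suz12 in 71 of 86 domains, or 82.6% (95% interval 72.9 to 89.9), against 4.5% of all autosomal domains, few of which hold Suz12. In domains with 2 to 4 Suz12 peaks it did so in 72.5% (65.5 to 78.7) and in those with 1 in 73.3% (66.2 to 79.6). These shares depend in part on the choice of domains by Suz12 number, so nothing is read from their order. The highest Suz12 peak sat on the highest H3K27me3 peak in 33 of 86 domains (38.4%, 28.1 to 49.5), and the median gap between them was 675 bp. Over 626 Suz12 peaks, value and the highest overlapping H3K27me3 value ran together weakly (rho 0.27, r 0.30, peaks of 2 libraries that share domains).

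The highest H3K27me3 values of the group were 41.7 in the chromosome 19 domain at 43636648, 40.5 on chromosome 13 at 31890136-31904080 and 38.4 on chromosome 4 at 46342411-46373912. The chromosome 13 domain at 40795155 followed with 38.1 and the 76.2 kb domain on chromosome 5 at 28468162-28544382, the longest of the 86, with 37.3. Only the chromosome 19 domain was among the 5 highest for both antibodies. In 15 domains the strongest H3K27me3 peak had no Suz12 peak on it. They included the chromosome 3 domain at 66767888-66788315, where it reached 35.0 and lay 10581 bp from the highest Suz12 peak, and the chromosome 2 domain at 61640785-61660901, where it reached 34.2 and lay 7266 bp away.

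In the shortest members, the minimum number of Suz12 peaks had to fit into little sequence. They are dense in Suz12 peaks by the choice, so nothing is read from that density. On chromosome 3 at 130809013-130815569, 8 Suz12 peaks with values of at most 13.4 lay on 5 H3K27me3 peaks in 6.56 kb, and Suz12 covered 59.0% of the domain. On chromosome 7 at 5002472-5010101, 5 Suz12 peaks of at most 11.7 lay in 7.63 kb with 4 H3K27me3 peaks. The next shortest, 11.0 kb on chromosome 4 at 126406480-126417467, reached a Suz12 value of 25.3. The chromosome 3 domain thus had 8 Suz12 peaks and none that reached 20.

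Suz12-rich domains lay on every autosome except chromosomes 15 and 18. Outside the Hox clusters they made up 86 of the 455 domains with Suz12, or 18.9%, and with few domains per chromosome no difference between chromosomes is read from the counts. Chromosome 2 had 12 of its 45 domains with Suz12 in the group, chromosome 5 had 10 of 36 and chromosome 13 had 8 of 22. Chromosome 11, with the most domains with Suz12 (48), had 3, and chromosomes 15 and 18, with 17 and 7 domains with Suz12, had none.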

How the data were processed

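Per the submitters' processing notes, the authors used Bowtie and MACS2 with the mouse build mm9; versions, parameters and the use of the input as control are not given in the sources used here. The authors deposited 1 peak list each for Suz12 (1477 peaks) and H3K27me3 (25955 peaks), from 1 library each. Each peak has a score, deposited with no scale named and never below 8, and no peak was narrower than 200 bp; weaker sites are in no count. Per the labels' protocols, cells were fixed with 1% formaldehyde and chromatin was sonicated to 200 to 300 bp.

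Starts were shifted by 1 to count from 1. Joining, overlap and counting used pandas 2.3.3, numpy 2.4.6 and scipy 1.17.1 under Python 3.11.15 (figures: matplotlib 3.10.9), and were tested on simulated data. Members, lists and comparisons were chosen with earlier results of these data known. Domains named are the 12 richest in Suz12 peaks, the 5 longest, the 5 highest for either antibody, the 3 shortest and 3 on each side of the minimum; a few others mark the ends of a range or were chosen after their values were seen. Planned counts of genes and promoters were left out, since the gene and promoter tables are of GRCm38, not mm9. Alternatives varied the gap, the minimum number, the peaks used, the overlap and the Hox clusters.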

Additional observations from a re-analysis of the deposited data

How the results depend on the processing

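No paired analysis was possible because each antibody has a single library, and no replicate could be left out. Of 77 alternative values, 49 stayed within the interval or 1.5-fold range of the reported value, 27 moved and 1 changed sign; the causes were not tested. The number of Suz12-rich domains was 162 with at least 3 Suz12 peaks, 36 with at least 8, 32 with the upper 50% of Suz12 peaks and 7 with Suz12 peaks joined over 1000 bp. The share of Suz12 peaks in them was 61.2%, 50.5%, 35.5% and 24.6% with at least 3, 4, 6 and 8 Suz12 peaks. It was 36.1% at a gap of 1000 bp, 27.3% with the upper 50% of Suz12 peaks, 39.5% with at least 50% of the Suz12 peak under H3K27me3, 54.3% with the Hox clusters and 5.13% with joined peaks. The median H3K27me3 value exceeded that of domains with 1 Suz12 peak by 1.20, by 1.73 with the upper 50% of Suz12 peaks, 0.30 with the upper 50% of H3K27me3 peaks, 2.265 with joined peaks and 0.65 for peaks without Suz12. The share under H3K27me3 differed by 3.65 percentage points, by 7.09 with the upper 50% of Suz12 peaks, 0.862 with joined peaks and 14.4 for domains of 10 to 40 kb, and by -0.366 with the upper 50% of H3K27me3 peaks. The strongest H3K27me3 peak overlapped Suz12 in 91.8% of domains at a gap of 1000 bp and in 100% of the 7 with joined peaks. The median distance of Suz12 peaks from the centre was 0.354 and 0.345 at gaps of 1000 and 10000 bp, 0.250 and 0.344 with the upper 50% of Suz12 and of H3K27me3 peaks and 0.356 with joined peaks. Counting each domain once and leaving out the domain with 23 Suz12 peaks were added after seeing the data. The minimum value of 8 and the unknown depth limit every count.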

Other observations

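Some Suz12-rich domains were neighbours of each other. The 2 closest pairs were on chromosome 13, at 31697342-31729049 and 31890136-31904080 (mm9), 161 kb apart with 6 and 8 Suz12 peaks, and on chromosome 2, at 115677449-115689277 and 115882389-115903323, 193 kb apart with 6 and 12. A further 4 pairs, on chromosomes 4, 6, 9 and 16, lay between 753 and 1000 kb apart.

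Other Suz12-rich domains lay beside long domains in which no Suz12 peak was found. On chromosome 11, the domain at 85640716-85659839 had 5 Suz12 peaks in 19.1 kb and 72.1% of its length under H3K27me3, and 29.8 kb away a 68.0 kb domain at 85689679-85757659 had none and 33.6% under H3K27me3. On chromosome 9, 6.28 kb separated the domain at 91245402-91265383, with 5 Suz12 peaks and 54.8% under H3K27me3, from one of 30.8 kb at 91271663-91302461 with none and 47.1%. On chromosome 2, 11.4 kb separated the 51.9 kb domain at 33453585-33505523, with 8 Suz12 peaks and 60.2%, from one of 30.6 kb with none and 43.1%. Of 5 such pairs within 100 kb, the Suz12-rich domain had the larger share under H3K27me3 and the higher maximum H3K27me3 value in each. With a gap of 10000 bp the chromosome 9 pair would be 1 domain. The pairs were picked with their values in view.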
